A study of Mus musculus with 6 samples.

Results

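In I/11 mouse erythroblasts given a hairpin RNA against Plcg1, 248 methylated-DNA peaks were listed for both hairpins at 0 h of differentiation but not at the same coordinates. They were chosen by their measured positions: a peak of hairpin 133 at 0 h was taken when it shared at least 1 bp with a peak of hairpin 14 at 0 h and that list had no peak with the same start and end. These offset regions made up 248 of the 3900 peaks of hairpin 133 at 0 h, which is 6.36% of the list (the same share that the selection rule fixes), and 20.6% of the 1206 peaks found with both hairpins. A further 958 peaks had identical coordinates in both lists, and 2694 peaks of hairpin 133 overlapped none of hairpin 14. Whether the lists of a time were called against a common control library, which bears on what identical coordinates mean in every comparison below, is not known from the labels and was not tested. The 4 lists together held 12963 peaks.

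I/11 is a murine erythroblast line made from fetal liver of p53-deficient embryos at day E12.5, so every group here lacked p53. Cells were infected with lentivirus carrying shRNA #133 or #14 against Plcg1, and puromycin selection lasted 48 h at 1 µg/ml. Cells of the 0 h groups were taken 72 h after infection, and those of the 24 h groups after a further day in differentiation medium with 10 U/ml erythropoietin (Epo). Before that, all cells were expanded with 1 U/ml Epo, stem cell factor and dexamethasone. Genomic DNA (3 µg) was sheared to about 150 bp and bound to 60 µg of MBD2-Fc, and what came off the protein at 1 M NaCl was sequenced. Each hairpin and time was 1 library, so no difference below has a replicate check, and the 2 libraries with a scrambled hairpin were not analysed here. The lists held 3900 peaks for hairpin 133 and 3437 for hairpin 14 at 0 h, and 2960 and 2666 at 24 h. They carry coordinates only, so depth is unknown, a peak has no height and no direction against the control, and the erythroid identity of the cells could not be checked on RNA. A level of methylation per cell and a share of methylated cells cannot be told apart from a peak.

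DNA methylation in mammals falls mainly on cytosines that precede a guanine (CpG), and CpG-dense stretches around gene starts are usually kept free of it. MBD2-Fc is a methyl-CpG binding domain joined to an antibody tail, and at high salt it holds DNA that carries many methylated CpGs close together. Plcγ1 is the phospholipase that cuts a membrane lipid into calcium-releasing and protein kinase C-activating messengers, and it acts downstream of the Epo receptor in erythroid cells.

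Few offset regions lay at a gene start. Of the 240 offset regions on chromosomes covered by the table of start sites, 5 (2.08%, exact 95% interval 0.68 to 4.80) reached by at least 1 bp into a window of 250 bases before to 50 bases after an annotated start site, at Slitrk5, Gcnt7, Firre, Ctsk and Rrp1b. The same held for 92 of 933 identical regions (9.86%) and 81 of 2624 regions of hairpin 133 only (3.09%). The peak of hairpin 133 covered 151 of the 300 window bases at Slitrk5 and 124 at Rrp1b, but only 66 at Gcnt7, 65 at Firre and 43 at Ctsk. The windows of Slitrk5, Gcnt7, Firre and Ctsk are printed to show how differently CpG-dense start-site windows reached by an offset region could be. They are RefSeq sequence of GRCm38.p6, 5′ to 3′ on the strand of the gene, and capitals mark the bases that lie in the peak of hairpin 133 at 0 h.
Slitrk5, chr14:111675777-111676076, plus strand: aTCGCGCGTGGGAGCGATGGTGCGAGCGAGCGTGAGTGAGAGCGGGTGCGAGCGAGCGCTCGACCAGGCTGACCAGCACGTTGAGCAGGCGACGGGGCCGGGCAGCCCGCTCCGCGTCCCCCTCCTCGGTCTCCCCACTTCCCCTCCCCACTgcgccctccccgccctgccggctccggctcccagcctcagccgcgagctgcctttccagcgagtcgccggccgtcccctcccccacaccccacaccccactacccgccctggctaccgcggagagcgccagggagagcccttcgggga
Gcnt7, chr2:172458547-172458846, minus strand: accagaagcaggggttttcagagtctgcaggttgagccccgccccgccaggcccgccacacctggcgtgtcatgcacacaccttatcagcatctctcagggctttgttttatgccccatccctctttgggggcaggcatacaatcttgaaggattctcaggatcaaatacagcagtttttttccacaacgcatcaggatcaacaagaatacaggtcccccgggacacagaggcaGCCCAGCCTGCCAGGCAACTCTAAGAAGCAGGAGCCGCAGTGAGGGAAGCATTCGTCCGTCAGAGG
Firre, chrX:50635272-50635571, minus strand: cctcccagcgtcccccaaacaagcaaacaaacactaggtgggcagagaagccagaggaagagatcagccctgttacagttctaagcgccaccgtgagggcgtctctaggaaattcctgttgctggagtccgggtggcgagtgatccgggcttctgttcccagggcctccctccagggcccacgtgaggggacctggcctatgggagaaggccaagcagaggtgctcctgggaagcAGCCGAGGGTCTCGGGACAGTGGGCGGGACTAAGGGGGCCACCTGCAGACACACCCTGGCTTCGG
Ctsk, chr3:95498960-95499259, plus strand: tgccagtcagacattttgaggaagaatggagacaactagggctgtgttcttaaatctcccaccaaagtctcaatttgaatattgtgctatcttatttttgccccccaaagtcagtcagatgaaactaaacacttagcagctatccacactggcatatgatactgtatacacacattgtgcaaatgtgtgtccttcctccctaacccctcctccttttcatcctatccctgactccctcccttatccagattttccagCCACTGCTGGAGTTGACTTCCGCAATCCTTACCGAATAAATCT

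The Slitrk5 window, at a gene for a neuronal membrane protein, held 35 CG dinucleotides in 300 bases, 20 of them in the 151 bases of the peak. Among all 32851 windows of the table, 6.95% held as many or more. The Firre window (Firre encodes a long noncoding RNA of the X chromosome) held 12, with 4 in the 65 peak bases that reach into it. The Gcnt7 window (Gcnt7 belongs to a family of glycosyltransferase genes) held 9, with 3 in 66 peak bases. The Ctsk window (cathepsin K, the collagen-degrading protease of osteoclasts) held 2, both in its 43 peak bases, and 85.9% of all windows held as many or more. The window of Rrp1b, at a start site inside that gene, held 5, with 4 in its 124 peak bases. The centre of that peak lay 1 bp from the start site. Slitrk5 therefore stood at the CpG-dense end of the table, whereas the other windows ranged from few to a moderate number of CpGs. These ranks describe whole windows and not the peak bases alone. The motif searched was CG, which reads the same on both strands and occurs in 94.6% of all windows of this length. The median number of CpGs was 9 over these 5 windows, against 20 over the 92 windows with an identical region, 19 over the 81 with a region of hairpin 133 only and 7 over all windows.

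The offsets themselves were small. The median distance between the starts of the paired peaks was 10 bp, with quartiles of 5 and 18 bp and a range of 1 to 86 bp, while every peak at 0 h was 151 bp wide. The hairpin 14 peak started at the lower coordinate in 131 pairs and at the higher one in 117, with a median signed difference of -2 bp. These sizes follow from the selection and are given without a test. The 8 smallest offsets were 1 bp, among them pairs in Prkca (protein kinase Cα), Cass4, Lama5 (a laminin chain), Fry, Hydin and Cdh13 (T-cadherin). The 3 largest in protein-coding genes were 51 bp in Pth2r, a parathyroid hormone receptor family gene, 52 bp in Mgat5, a glycosyltransferase that branches N-glycans, and 86 bp in Slain1, a microtubule regulator. The Slain1 pair (chr14:103695239-103695389 for hairpin 133) overlapped by 65 bp, the least of all pairs, and the next smallest overlap was 99 bp. Just outside the rule, the closest non-overlapping peaks of the 2 lists had starts 195 and 212 bp apart, and 12 of the 2694 peaks of hairpin 133 only had a hairpin 14 peak starting within 300 bp.

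**Figure D1:**
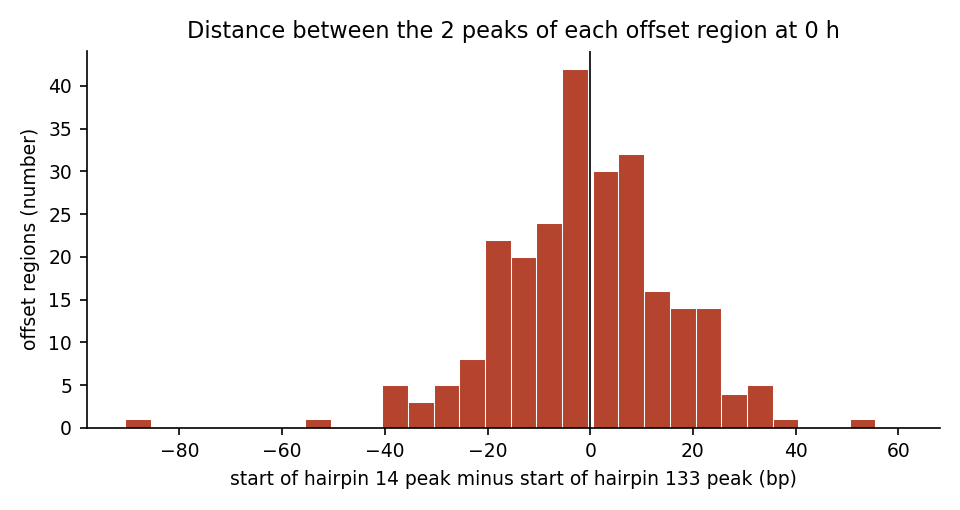
Histogram of the start of the hairpin 14 peak minus the start of the hairpin 133 peak (bp, in bars of 5 bp) for the 248 offset pairs at 0 h, with the number of pairs on the vertical axis. Starts of hairpin 14 were lower in 131 pairs and higher in 117, and the Slain1 pair at 86 bp stood apart at the far left.

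Offset pairs were a minority within a time and the rule between times. At 24 h, 54 of the 745 peaks shared by the hairpins (7.25%) were offset, with a median of 13.5 bp. Between 0 h and 24 h, 96.7% to 97.7% of shared peaks were offset in each of the 4 pairs of lists, with medians of 10 to 11 bp. The median of 10 bp at 0 h was at the low end of these medians, while the offset share of 20.6% at 0 h lay between the share at 24 h and those between times.

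Very few offset regions were found again at 24 h. A peak of hairpin 133 at 24 h overlapped 8 of the 248 (3.23%, interval 1.40 to 6.26), against 13.1% of all peaks of hairpin 133 at 0 h. A peak of hairpin 14 at 24 h overlapped 7 (2.82%, interval 1.14 to 5.73), against 12.3% of all. In either 24 h list there were 12 (4.84%, interval 2.53 to 8.30), against 17.6% of all, and in both lists 3 (1.21%, interval 0.25 to 3.49), against 7.82% of all. The other 236 regions overlapped no peak in either 24 h list. Intervals here and below are exact binomial 95% intervals and cover counting error only.

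Presence at 24 h differed from both other classes of peaks. Of the 958 identical regions, 385 (40.2%, interval 37.1 to 43.4) had a peak in either 24 h list, a difference of -35.4 percentage points for the offset regions (Fisher's exact test, two-sided, odds ratio 0.0757, p = 2.07e-31 after Benjamini-Hochberg adjustment over 4 tests). Of the 2694 regions of hairpin 133 only, 288 (10.7%, interval 9.55 to 11.9) did, a difference of -5.85 points (odds ratio 0.425, adjusted p = 0.00276, same exact test). Offset regions were therefore present at 24 h less often than peaks that a single hairpin had at 0 h. The peaks of 1 library are the units of these tests, which describe the list and not the condition. Widening the search to a 24 h peak centre within 10 kb raised the counts to 24 offset regions (9.68%), 484 identical regions (50.5%) and 491 regions of hairpin 133 only (18.2%), so the order of the classes was the same.

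**Figure D2:**
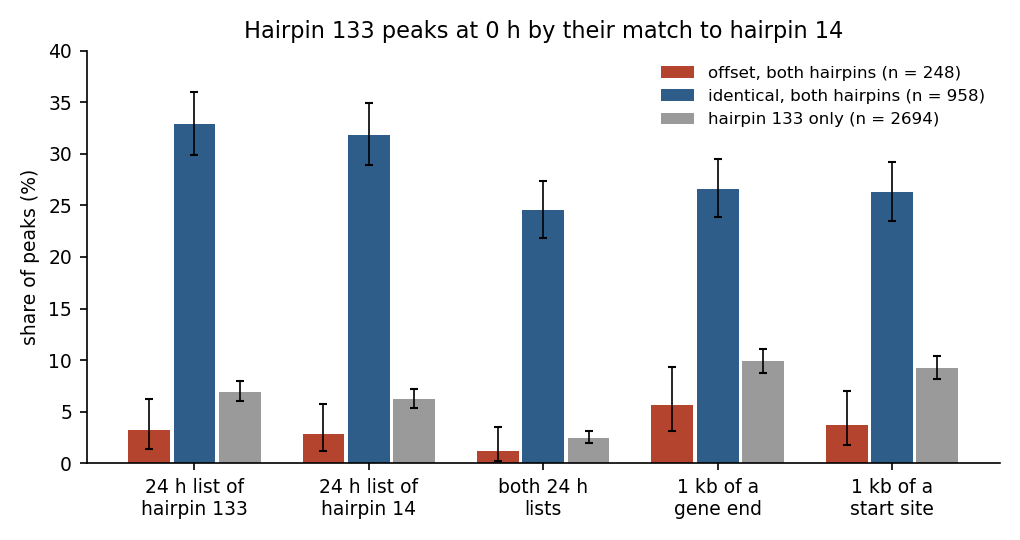
Percent of regions (with exact 95% binomial intervals) with a peak at 24 h and near a gene end or start site, for the offset, identical and hairpin 133 only classes. Offset regions had the lowest shares, for instance 1.21% in both 24 h lists against 24.5% and 2.49%. The interval of that 1.21% (0.25 to 3.49) holds the 2.49% of hairpin 133 only, and this pair was not tested.

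The 3 offset regions found in both 24 h lists were in Slitrk5, near Chst11 and at a tRNA gene. In Slitrk5 (chr14:111675778-111675928), relative to the start of hairpin 133 at 0 h, the peak started 10 bp higher with hairpin 14 at 0 h, 5 bp higher with hairpin 133 at 24 h and 17 bp lower with hairpin 14 at 24 h (a difference of -17 bp). The region near Chst11, a chondroitin sulfotransferase gene whose end lay 3.38 kb away (chr10:83199212-83199362), had differences of -7, 11 and 17 bp in the same order. The region in the tRNA gene n-TMcat10, 13.8 kb from the end of Zfp184 (chr13:21931155-21931305), had differences of -38, -21 and -10 bp. At each of these 3 regions the 4 libraries gave 4 different starts, so none was identical between the hairpins at 24 h either. Among the 235 identical regions found in both 24 h lists, 234 (99.6%) were again identical between the hairpins at 24 h.

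Another 5 offset regions had a peak at 24 h with hairpin 133 only. They lay in Miga1 (chr3:152303412-152303562), a mitochondrial fusion gene, and in Sv2b (chr7:75152561-75152711), a synaptic vesicle gene, 1.63 kb from an end of Stra8, the retinoic acid-induced germ cell gene, 25.9 kb from Tmtc4 and 244 kb from Btg1. The 24 h peak started at -13, -4, 18, 1 and -7 bp from the 0 h start, in that order. In Miga1 the 24 h start of hairpin 133 was the 0 h start of hairpin 14, which no other 24 h peak at an offset region matched. The 4 regions with a peak of hairpin 14 only at 24 h lay in Ankrd44 (chr1:54906301-54906451), Sh2d3c (chr2:32754508-32754658), an adaptor gene, and Sorcs2 (chr5:36226514-36226664), a sortilin-family receptor gene, and 20.3 kb from Cmtm8. Their 24 h starts were 37, -9, 7 and 2 bp from the hairpin 133 start at 0 h. Across the 15 peaks at 24 h over offset regions, 0 had the 0 h start of hairpin 133. The distances from it ran from 1 to 37 bp with a median of 10 bp. Identical coordinates between times were rare for all shared peaks of hairpin 133 at 0 h. They were found for 14 of 510 with hairpin 133 at 24 h and 16 of 480 with hairpin 14. Between hairpin 14 at 0 h and hairpin 133 at 24 h they were found for 11 of 474. The 0 and the match in Miga1 cannot be told from this background. The 12 regions had a median offset of 7.5 bp at 0 h, against 10 bp for the 236 without a 24 h peak. Of the 12, 6 lay in protein-coding gene bodies and 2 lay over 10 kb from any gene.

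**Figure D3:**
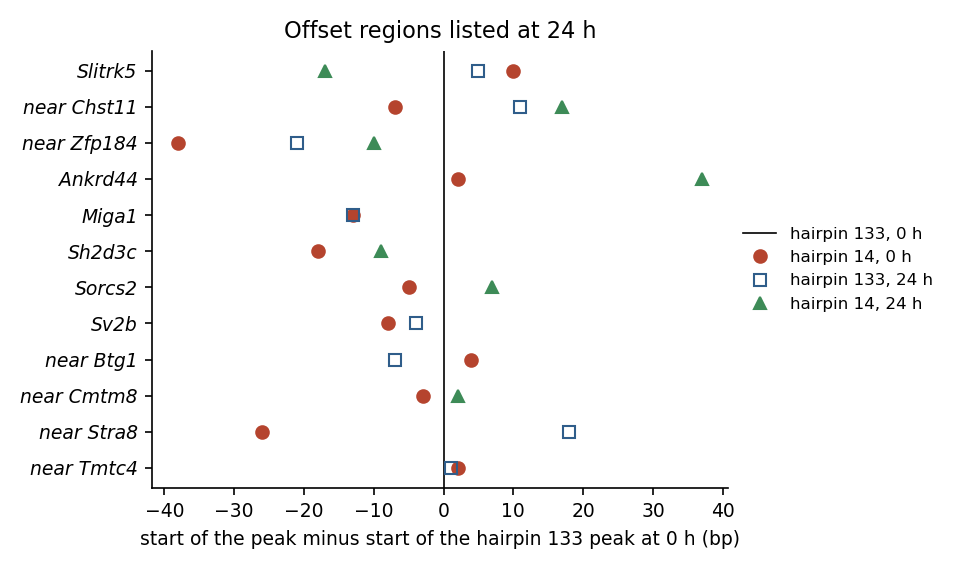
Start of each library's peak relative to the hairpin 133 start at 0 h (bp, horizontal axis) for the 12 offset regions with a peak at 24 h, 1 row per region named by its gene or nearest gene. The differences lay between -38 and 37 bp, and 3 rows have marks for all 4 libraries. They are Slitrk5, near Chst11 and near Zfp184, the last being the region in n-TMcat10.

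Offset regions fell mostly inside genes, as the other peaks did. The centre lay in the body of a protein-coding gene for 141 of 248 (56.9%, interval 50.4 to 63.1), against 58.4% of all peaks of the list, 59.8% of identical regions and 58.0% of regions of hairpin 133 only. Another 20 lay in other genes only (14 in long noncoding RNA genes, 5 in pseudogenes and 1 in the tRNA gene), 44 (17.7%) within 10 kb of a gene and 43 (17.3%, interval 12.8 to 22.6) farther than that, against 15.8% of all peaks. The median distance of those 43 from any gene was 31.5 kb and the largest 176 kb, on chromosome 5 with Sema3d, a semaphorin gene, as its closest protein-coding gene. These shares lie near the background of the list. The annotation table has no exons, so exon, intron and untranslated region could not be told apart.

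The share of regions close to a gene end differed between the classes. The median distance to the nearest end of a protein-coding gene was 20.5 kb for offset regions. It was 8.09 kb for identical regions and 19.8 kb for regions of hairpin 133 only, and these medians were not tested. At most 1 kb from a protein-coding gene's nearer end lay 14 offset regions (5.65%, interval 3.12 to 9.29), against 13.7% of all peaks. Of the identical regions 255 (26.6%) did, a difference of -21.0 points (Fisher's exact test, two-sided, odds ratio 0.165, adjusted p = 1.26e-14). Of the regions of hairpin 133 only 266 (9.87%) did, a difference of -4.23 points (odds ratio 0.546, adjusted p = 0.0310, same exact test). That last call was lost when only pairs with starts over 5 bp apart counted as offset (-3.62 points, adjusted p = 0.146 by the exact test). Measured to annotated start sites, 9 of 240 offset regions (3.75%, interval 1.73 to 7.0) were within 1 kb, against 13.1% of all peaks, 26.3% of identical regions and 9.26% of regions of hairpin 133 only. The median distance to a start site was 20.02 kb for offset regions (quartiles 7.91 and 55.4 kb), 11.1 kb for identical regions and 20.2 kb for regions of hairpin 133 only.

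The 14 regions at gene ends were split between starts and far ends. At the start side were Gcnt7 (centre 59 bp from that end, offset 31 bp), Ctsk (82 bp, offset 3 bp), Runx3 (599 bp, offset 20 bp), E130308A19Rik (603 bp, offset 25 bp), Slitrk5 (738 bp, offset 10 bp) and Fastkd2 (886 bp, offset 3 bp). Runx3, a RUNX transcription factor of blood and other lineages, had its region just inside the gene's upstream end (chr4:135121169-135121319). Fastkd2, whose product acts on mitochondrial RNA, had it at chr1:63731410-63731560. At the far end were Prim1, the primase catalytic subunit gene (72 bp, chr10:128030027-128030177), Timp2, a metalloproteinase inhibitor gene (125 bp, chr11:118301111-118301261), Raver2 (382 bp, chr4:101152677-101152827, where the region also lay inside Jak1, a Janus kinase gene), Sh2d3c (424 bp), Xpnpep1, an aminopeptidase gene (881 bp, chr19:52932085-52932235), Rnf41, a ubiquitin ligase gene (932 bp, chr10:128440434-128440584), and Fastk (968 bp, chr5:24441931-24442081). For Slc14a1, the urea transporter that carries the Kidd blood group (739 bp from an end, chr18:78142783-78142933), no strand was used. Of these 14, those in Slitrk5 and Sh2d3c had a peak at 24 h.

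Among peaks within 1 kb of a gene end, offset regions were at the start in 6 of 13 with a known strand (46.2%), identical regions in 180 of 200 (90.0%) and regions of hairpin 133 only in 149 of 199 (74.9%). The differences were -43.9 points (two-sided Fisher's exact test, adjusted p = 0.000499) and -28.7 points (adjusted p = 0.0460, same exact test), in a comparison added after the regions had been seen. The second call was lost with 2 kb in place of 1 kb (-20.5 points, adjusted p = 0.159 by the exact test).

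Inside genes, offset regions were spread along the whole length. Of the 116 offset regions in host genes of known strand, 30 (25.9%) lay in the first 20% of the gene's length, and 13.8% to 22.4% in each later stretch of 20%. Of identical regions 46.5% and of regions of hairpin 133 only 23.4% lay in the first 20%. The median position was 48.4% of the length for offset regions, 25.2% for identical regions and 50.6% for regions of hairpin 133 only. Host genes of offset regions had a median length of 90.5 kb (range 4.26 to 1185 kb), against 62.7 kb and 93.2 kb in the other classes. By position and gene length the offset regions were thus closer to the peaks of hairpin 133 only than to the identical regions; this was not tested.

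**Figure D4:**
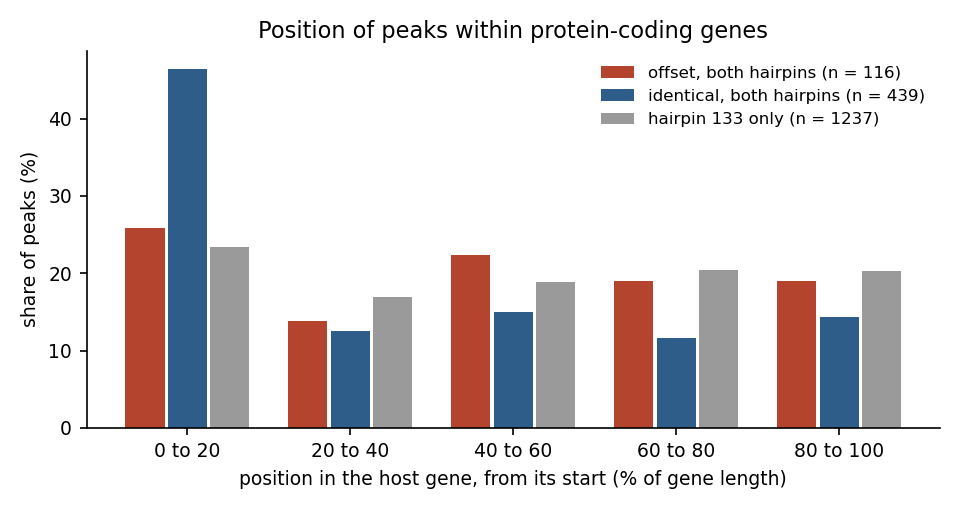
Percent of regions in each stretch of 20% of the host gene's length, from the start of the gene to its far end, for the 3 classes. Identical regions were concentrated in the first stretch (46.5%), offset regions (25.9%) and regions of hairpin 133 only (23.4%) less so.

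The 141 offset regions in protein-coding bodies were spread over 138 genes, of which 5 held a pair of them. Mast4, a microtubule-associated kinase gene of 603 kb, had regions at chr13:102990655-102990805 (offset 30 bp) and chr13:103142254-103142404 (16 bp). Map3k13, a MAP kinase kinase kinase gene of 109 kb, had regions at chr16:21866040-21866190 (16 bp) and chr16:21915837-21915987 (12 bp). Dnmbp, a Cdc42 activator gene of 93.4 kb, had regions at chr19:43874527-43874677 (9 bp) and chr19:43912266-43912416 (24 bp). Auts2, a gene of 1106 kb that is linked to neurodevelopment, had regions at chr5:131474861-131475011 (7 bp) and chr5:131512839-131512989 (17 bp). Cdh13, of 1185 kb, had regions at chr8:118497784-118497934 (4 bp) and chr8:119300064-119300214 (1 bp). None of these 10 regions had a peak at 24 h. Identical regions were also present in Auts2 and Cdh13 (1 each) and in none of the other three. Elsewhere in their bodies, 37 of the 138 host genes (26.8%, interval 19.6 to 35.0) held a 24 h peak of either hairpin, against 38.5% of the 554 host genes of identical regions and 32.5% of the 1385 of regions of hairpin 133 only.

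Offset regions were also found in or near phospholipase C, protein kinase C and calcium genes. Plcg1 itself (chr2:160731310-160775760) held no offset region, and the nearest was 6983 kb away. Of 68 phospholipase C, calcium and protein kinase C genes, 5 (7.35%) had an offset region in the body or within 10 kb, against 0.872% of all 21900 protein-coding genes. Plcb4 (chr2:135804522-135804672, offset 22 bp) and Plch2 (chr4:155008961-155009111, 4 bp) encode phospholipases, as does Plcd4. The Plcd4 region lay 5.46 kb away, inside the body of another gene, Zfp142 (chr1:74571439-74571589, 4 bp). Prkca (chr11:107970023-107970173, 1 bp) is a kinase switched on by the lipid product, and Rasgrp1 (chr2:117334920-117335070, 11 bp) is a Ras activator that binds it. An identical region was at 4 of the 68 genes, against 3.79% of all genes, and a region of hairpin 133 only at 15 (22.1%), against 9.21% of all genes. The genes of this list had a median length of 76.4 kb, against 17.2 kb for all protein-coding genes, and Prkca and Plcb4 are 411 kb and 356 kb long. The counts were not adjusted for gene length, and its part in them was not tested. None of the 5 regions had a peak at 24 h.

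Erythroid and lineage lists held 0 to 2 genes with an offset region each, against 0.872% of all protein-coding genes. With so few genes per list, the shares cannot be read as above or below that background. Of 26 erythroid transcription factors, Tcf3 (E2A, a partner of Tal1) had 1 in its body (chr10:80426887-80427037, offset 4 bp), which is 3.85% of the list. Of 27 red cell membrane and blood group genes, Cd44 (chr2:102884530-102884680, 3 bp) and Slc14a1 had 1 each (7.41%). Of 40 genes of Epo and Kit signalling, Pik3cd, a PI3-kinase subunit, had 1 (chr4:149672234-149672384, 15 bp, 2.5%). Of 28 myeloid markers, Mpo (myeloperoxidase, chr11:87796187-87796337, 11 bp) and Ly6g (6.68 kb away) had 1 each (7.14%). Of 46 cell cycle, apoptosis and p53 pathway genes, Ccna2 had 1 at 10.0 kb, inside the body of Exosc9, and of 38 cadherin genes, Cdh13. No offset region lay at the 19 globin and haem synthesis genes, the 16 iron genes, the 29 stem and progenitor regulators, the 20 megakaryocyte markers, the 30 genes of the DNA methylation machinery, the 53 imprinted genes, the 20 housekeeping genes or the 54 Wnt, Fgf, Bmp and hedgehog ligands.

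Among developmental transcription factors, an identical region was at 16 of 39 Hox genes (41.0%) and at 36 of 132 other homeobox, paired, T-box and Sox genes (27.3%), against 3.79% of all genes. A region of hairpin 133 only was at 7 (17.9%) and 32 (24.2%) of them, against 9.21% of all genes. An offset region was at 0 of 39 and 0 of 132, which allows shares of up to 7.69% and 2.27% if genes are independent. They are not, since a gene counted with a region in its body or within 10 kb. A single region can therefore count for several neighbouring genes, as among the Hox genes, and the shares above were not adjusted for this. Every list with 0 offset regions allows a share above the 0.872% of all genes, so a 0 cannot be read as fewer than the background for any of them. In all, 14 of the 695 distinct genes of the lists had an offset region, and these were in 8 lists. Of those regions 0 had a peak at 24 h, against 12 of all 248 offset regions (4.84%). With so few regions that 0 cannot be told from this share.

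Offset regions lay on every autosome and on X, mostly far from other peaks of the list. The median distance to the nearest other peak of the list was 153 kb, against 85.9 kb for identical regions and 146 kb for regions of hairpin 133 only, and 14 (5.65%) had another peak within 10 kb, against 17.3% and 8.58%. Chromosome 12 held 4 (1.61%), against 6.90% of the other peaks of the list, a difference of -5.29 points (Fisher's exact test, two-sided, p = 0.00580 after adjustment over 20 chromosomes, chosen after the counts had been seen). These 4 were in Heatr5a and, outside protein-coding genes, 112 kb from Egln3 and 250.4 and 681 kb from Lrfn5. Chromosome 12 also held 94 of the 958 identical regions (9.81%). The X chromosome held 8 (3.23%), against 1.42% of the rest and 0.313% of identical regions, and did not pass (adjusted p = 0.532, same exact test). Its regions included those in Gla, Pwwp3b, Wnk3 and Vegfd and the one at the start of Firre. None of these 12 regions had a peak at 24 h, against 4.84% of all 248 offset regions, a share from which so few cannot be told.

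**Figure D5:**
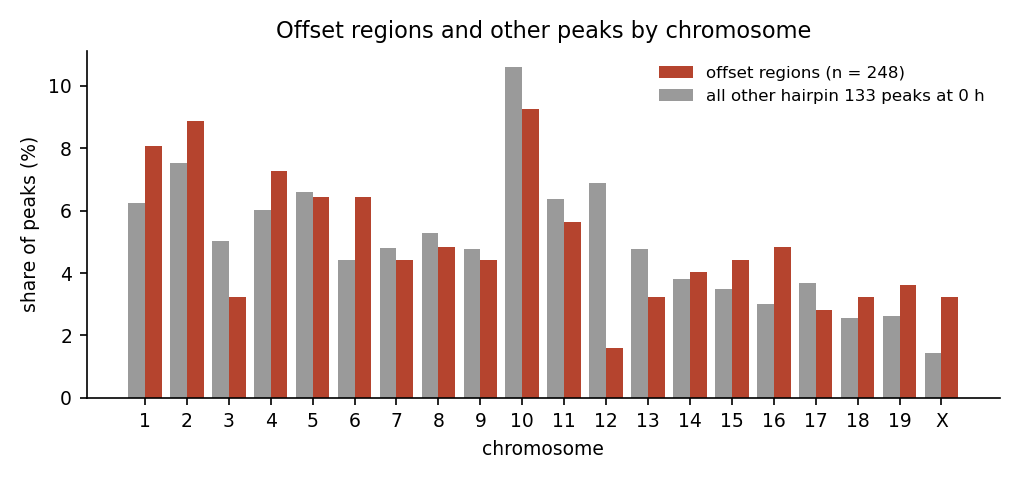
Percent of the 248 offset regions (red) and of all other peaks of hairpin 133 at 0 h (grey) on each chromosome. On chromosome 12 the offset share was 1.61% against 6.90%, and on X 3.23% against 1.42%.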

How the data were processed

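Methyl-CpG immunoprecipitation was sequenced from 6 libraries of I/11 cells, of which the 4 with a Plcg1 hairpin gave the peak lists analysed. The deposited lists, made by the authors, hold chromosome, start and end in base pairs (coordinates, with no count, score or strand). Per the submitters' processing notes, BWA, Picard, SAMtools and HOMER were used on mm10. Versions, settings, the control for peak calling and its threshold are not given in the sources used here. Starts, taken as 0-based, are printed as 1-based.

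Peaks were compared by overlap of at least 1 bp. Genes came from a RefSeq table of GRCm38.p6 (49997 genes, 21900 protein-coding), whose coordinates are those of mm10, and each peak was placed by its centre. Start sites and strands came from 32851 RefSeq windows, which hold none on chromosome 18 (8 offset regions). Sequence outside those windows was not used here. No offset region overlapped a miRNA hairpin of the RefSeq table.

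Shares have exact 95% binomial intervals. A two-sided Fisher's exact test, with p-values adjusted over 4 tests after Benjamini and Hochberg (threshold 0.05), compared offset with identical regions and with regions of hairpin 133 only, using Python 3.11.15, pandas 2.3.3 and scipy 1.17.1, tested on simulated data. Tests of chromosomes and of gene starts against far ends were added. The members and lists were chosen with earlier results of these data known. The genes named were Plcg1, those with 2 or more offset regions, those of regions in the 24 h lists, those within 1 kb of a gene end, those of the 3 smallest and 3 largest offsets (ties kept) and up to 5 per gene list, of which 1 list's result is not reported here. Genes near the 9 regions in a single 24 h list, in start-site windows or on chromosomes 12 and X were chosen after their values were seen. So were Sema3d, Zfp142 and Exosc9.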

Additional observations from a re-analysis of the deposited data

How the results depend on the processing

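For 13 results, 53 alternatives were run. They covered a stricter overlap of 76 bp, only starts over 5 bp apart, and members taken from the hairpin 14 list. Further ones took 1 peak per 100 kb, no chromosome 10, or other distances to gene ends and to 24 h peaks. Of the 53, 50 kept their direction and side of the threshold, moved within counting error or were counts of offset regions. That count fell from 248 to 176 with only starts over 5 bp apart, where the 72 pairs 1 to 5 bp apart no longer counted as offset. The share of offset regions near a gene end rose from 5.65% to 18.15% (45 regions) when 5 kb replaced 1 kb, since the wider distance takes in more regions. The lower gene-end share against regions of hairpin 133 only lost its call with starts over 5 bp apart (-3.624 points, adjusted p = 0.1456 by Fisher's exact test), and the cause was not tested. Its other values ran to -8.179 points. The lower share at gene starts against those regions lost its call within 2 kb (-20.54 points, adjusted p = 0.1589 by the same exact test); the cause was not tested. The comparisons with identical regions ran from -27.2 to -18.8 points for gene ends and from -37.7 to -33.5 points for presence at 24 h, and presence at 24 h against regions of hairpin 133 only from -7.04 to -5.17 points. The alternatives for chromosome 12 and for gene starts were chosen after seeing the data. Each group was 1 library, so none could be left out, and depth is unknown.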
